A study of Homo sapiens with 9 samples.

Results

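RHCG, KLHDC7B, PLEKHA4 and OR2I1P are 4 of the 58735 genes counted in RNA-seq libraries of A549, an established line of lung adenocarcinoma cells. They were picked by name because their counts were strongly lower in the libraries with the LINC00996 plasmid and because none of them has a well-known immune role. The choice therefore used the LINC00996 and control libraries, with no numeric limit, and the low levels with LINC00996 are given below as a description, without a test. All 4 genes passed the filter on low counts in every comparison. A549 cells had been transfected with jetPRIME and a plasmid in all 3 groups, with 3 libraries per group. The libraries titled PC3 are the control, and their labels name the plasmids PC3.1, PC3.2 and PC3.3. The L996 libraries carry a plasmid that overexpresses the lncRNA LINC00996, and the RP11 libraries carry a plasmid that overexpresses the lncRNA AP001189.3. No untransfected cells were analysed here, and whether the replicates came from separate cultures is not stated, so p-values measure the spread between these libraries, which may be technical.

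RHCG (Rh family C glycoprotein) is a membrane channel that lets ammonia cross epithelia and is best known from the collecting duct of the kidney. KLHDC7B belongs to the proteins with kelch repeats, which fold into a propeller and often bind other proteins, and its own function is little known. PLEKHA4 carries a pleckstrin homology domain that binds phosphoinositides at the plasma membrane, and it gathers the adaptor KLHL12 of the CUL3 ubiquitin ligase, which targets Dishevelled proteins of the Wnt pathway. OR2I1P is named as an olfactory receptor pseudogene and lies among olfactory receptor genes in the extended major histocompatibility complex. The 4 genes were set beside interferon-stimulated genes, which cells switch on through STAT and IRF factors when interferon binds its receptors. Among these, IFI44 encodes an interferon-induced antiviral protein and CMPK2 encodes a nucleotide kinase of mitochondria that interferon also induces.

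The genes lie on 4 chromosomes of GRCh38. RHCG (ENSG00000140519) spans chr15:89471398-89496613 on the minus strand, with up to 11 exons in a transcript. PLEKHA4 (ENSG00000105559) spans chr19:48837097-48868632 on the minus strand, with up to 20 exons. KLHDC7B (ENSG00000130487) spans chr22:50545891-50551023 on the plus strand, with 5133 exonic bases. OR2I1P (ENSG00000237988) spans chr6:29550407-29557721 on the plus strand, with 5365 exonic bases, and is annotated as protein coding in GENCODE 29, while RefSeq lists it under the symbol OR2I1. No annotated gene overlaps RHCG, KLHDC7B or PLEKHA4. The exons of OR2I1P share 836 bases, or 15.6% of its exonic length, with UBD, a ubiquitin-like gene induced by inflammatory cytokines, and 722 bases with GABBR1, a GABA receptor subunit gene, both on the opposite strand. The strand setting of the counting is not given in the sources used here, so reads from those bases cannot be assigned to a strand. UBD, of whose 1087 exonic bases only 251 lie outside OR2I1P, had 0 counts in all 9 libraries, and GABBR1 had between 330 and 487.

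Promoter sequences from RefSeq (GRCh38.p14) were matched for 2 of the 4 genes, KLHDC7B and OR2I1P, and also for IFI44 and CMPK2. They run from 250 bases before to 50 bases after the start of the gene. All of these genes had lower levels with LINC00996, and the sequences of KLHDC7B, OR2I1P and the first promoter listed for IFI44 are shown. They were searched on both strands for the interferon-stimulated response element (GAAANNGAAA), the gamma-activated sequence (TTCNNNGAA) and the consensus of the NF-kB site, and matches are in capitals. The sequences are given 5′ to 3′ on the strand of the gene, for KLHDC7B at chr22:50545649-50545948, for OR2I1P at chr6:29550157-29550456 and for IFI44 at chr1:78649539-78649838, all on the plus strand.
KLHDC7B: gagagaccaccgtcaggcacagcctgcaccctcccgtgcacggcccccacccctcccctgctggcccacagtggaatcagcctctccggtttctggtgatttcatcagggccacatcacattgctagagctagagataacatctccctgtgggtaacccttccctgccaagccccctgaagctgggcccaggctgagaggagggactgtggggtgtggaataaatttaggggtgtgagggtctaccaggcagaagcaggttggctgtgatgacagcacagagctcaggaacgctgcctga
OR2I1P: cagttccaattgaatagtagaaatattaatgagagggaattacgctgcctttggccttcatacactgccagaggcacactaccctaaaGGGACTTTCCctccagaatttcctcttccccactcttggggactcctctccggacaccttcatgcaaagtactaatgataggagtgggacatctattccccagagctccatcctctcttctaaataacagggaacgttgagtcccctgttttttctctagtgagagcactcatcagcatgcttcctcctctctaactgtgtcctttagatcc
IFI44: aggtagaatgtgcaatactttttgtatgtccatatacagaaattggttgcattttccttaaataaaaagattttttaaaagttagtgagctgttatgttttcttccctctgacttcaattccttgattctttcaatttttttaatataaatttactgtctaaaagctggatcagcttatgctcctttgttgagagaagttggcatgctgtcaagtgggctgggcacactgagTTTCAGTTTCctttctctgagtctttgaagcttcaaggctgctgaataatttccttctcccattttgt

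The OR2I1P promoter held a single match, to the NF-kB site, which began 162 bases before the start. The KLHDC7B promoter held no match to any of the 3 motifs. The IFI44 promoter printed here held an interferon-stimulated response element on the minus strand, 18 bases before the start, the second promoter listed for IFI44 held the same letters 60 bases before its start, and the 3 promoters listed for CMPK2 held none of the motifs. Among all 35116 promoters of the same length, 5.91% held the NF-kB site, 3.57% the interferon-stimulated response element and 7.66% the gamma-activated sequence. The response element was found in 56.9% of the 72 promoters of the interferon-stimulated genes listed for this work. The gamma-activated sequence was found in 26.4% and the NF-kB site in 12.5% of them. A match describes the letters of this window and is not a measured binding site.

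The libraries held between 15272450 and 18125447 counts. The lncRNA LINC00996 rose from 4 to 9 counts per control library to 4373 to 5952 in its own group, and AP001189.3 from 0 to 2 counts to 1660 to 2378, so both plasmids matched their labels. All 11 epithelial markers of A549 were detected in every library, with a summed level of 16187 to 16279 CPM (counts scaled to library size) in the control group, 20709 to 23619 with LINC00996 and 17233 to 17725 with AP001189.3. The markers did not move together with LINC00996, where ALDH1A1 (log2 fold change 0.99), ALDH3A1 (1.67) and AKR1B10 (0.93) rose, while CDH1 (-0.89) and EGFR (-0.49) fell (adjusted p at most 0.00188 by edgeR) and the other 6 did not pass the test, beside 11.6% of all genes called lower and 10.7% higher. With AP001189.3, ALDH3A1 (0.49), ALDH1A1 (0.32) and KRT8 (0.19) rose and AKR1C2 (-0.19) and AKR1C1 (-0.19) fell (adjusted p at most 0.00930 by edgeR), beside 11.4% of all genes called higher and 8.49% lower. Of 10 blood cell markers, CD3D and MS4A1 were at 0 throughout and the summed level ranged from 14.8 to 22.0 CPM over the 9 libraries. The 4 endothelial markers summed to 11.6 to 13.1 CPM in the control group, 5.26 to 6.49 with LINC00996 and 7.28 to 9.57 with AP001189.3. Of these, 2 could be tested and PECAM1 alone was called lower (log2 fold change -1.42 with LINC00996 and -0.80 with AP001189.3). The 6 fibroblast markers summed to 23.1 to 26.0, 16.2 to 18.3 and 21.2 to 24.7 CPM, of which COL1A1 fell with LINC00996 (log2 fold change -0.62, adjusted p = 0.00635 by edgeR) and COL3A1 had 0.51 (adjusted p = 0.136). The part of these markers in the results below was not tested, and in bulk RNA fewer cells of a type cannot be told apart from less RNA per cell. LINC00996 replicate 1 stood apart from replicates 2 and 3, with a chi-square value per gene of 20.1 and 29.7 against 2.21 to 6.70 for the other pairs of replicates. The level of genes in a library was also related to their GC content across 16552 genes, which are not independent replicates. Spearman's rho was 0.43, -0.24 and -0.42 in the LINC00996 libraries, -0.0036, -0.24 and -0.28 in the control group, and 0.35, 0.22 and 0.20 with AP001189.3.

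In control cells the 4 genes spanned a wide range of levels. By the deposited FPKM values, which account for gene length, RHCG stood at 35.5 ± 2.79 FPKM (SD, n = 3), above 93.7% of the 16560 genes that passed the filter over the 3 groups. PLEKHA4 stood at 16.3 ± 2.50 FPKM (SD, n = 3), above 84.7% of them. OR2I1P was at 4.63 ± 0.525 FPKM (SD, n = 3) and KLHDC7B at 3.10 ± 0.153 FPKM (SD, n = 3), close to the middle of the ranking, above 56.2% and 46.6% of the genes. With LINC00996, RHCG was at 9.11, PLEKHA4 at 7.04, OR2I1P at 0.676 and KLHDC7B at 0.391 mean FPKM, and KLHDC7B was then above only 12.5% of the genes. With AP001189.3, PLEKHA4 had the highest mean of the 4 genes, at 29.9 ± 2.03 FPKM (SD, n = 3), next to RHCG at 28.2 ± 2.78 FPKM (SD, n = 3).

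**Figure D1:**
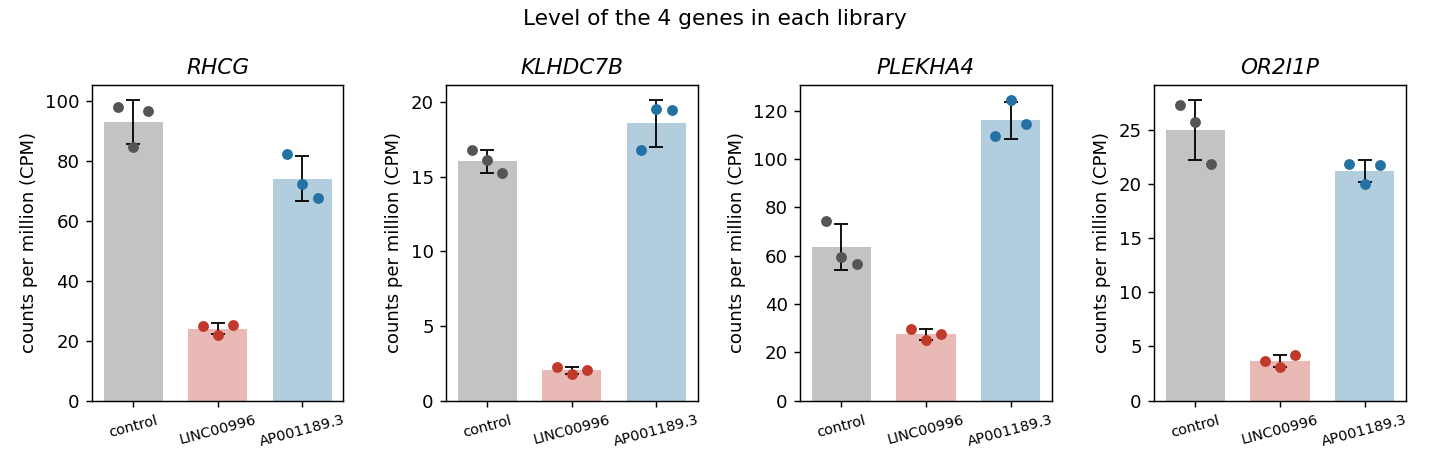
Level of RHCG, KLHDC7B, PLEKHA4 and OR2I1P in CPM (vertical axis, from 0) in the control, LINC00996 and AP001189.3 groups. Points are the 3 libraries of a group, bars their mean and error bars the SD; the LINC00996 libraries lie below all others in each panel, and only in the PLEKHA4 panel do the AP001189.3 libraries reach 109 to 124 CPM, far above the control libraries at 56.4 to 74.3 CPM.

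KLHDC7B had the lowest level with LINC00996, relative to control, of the 4 genes. It was at 16.8, 16.1 and 15.2 CPM in the control libraries and at 2.24, 1.78 and 2.06 CPM with LINC00996, values that rest on 41, 28 and 38 counts. The LINC00996 libraries lay far below the control libraries without overlap, at 12.6% of the control mean, and the fitted log2 fold change was -2.98 (standard error 0.16). In the AP001189.3 libraries KLHDC7B was at 16.8, 19.5 and 19.5 CPM, so that the lowest of them was level with the highest control library. The order of the levels was AP001189.3, control, LINC00996.

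OR2I1P was at 27.3, 25.8 and 21.9 CPM in the control libraries and at 3.67, 3.11 and 4.22 CPM in the LINC00996 libraries. These were 14.7% of the control mean, again without overlap, with a fitted log2 fold change of -2.76 (standard error 0.16). With AP001189.3 it was at 21.9, 20.0 and 21.8 CPM, just under the lowest control library. The order was control, AP001189.3, LINC00996. GABBR1, which shares exonic bases with OR2I1P on the opposite strand, stood at 25.1 ± 0.960 CPM in the control group, 22.3 ± 2.74 CPM with LINC00996 and 27.2 ± 1.46 CPM with AP001189.3 (SD, n = 3 each), and neither difference from control passed the test in edgeR (log2 fold change -0.17, adjusted p = 0.349, and 0.12, adjusted p = 0.391). Without LINC00996 replicate 1, the difference of GABBR1 with LINC00996 was -0.28 (adjusted p = 0.0408).

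RHCG, the gene with the highest level per length in the control group, was at 98.1, 84.8 and 96.7 CPM in the control libraries and at 25.0, 21.9 and 25.1 CPM with LINC00996. The LINC00996 libraries were at 25.8% of the control mean (log2 fold change -1.96, standard error 0.11). In the AP001189.3 libraries RHCG was at 82.5, 72.4 and 67.9 CPM, all below the lowest control library. The order was control, AP001189.3, LINC00996.

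PLEKHA4 was at 74.3, 59.6 and 56.4 CPM in the control libraries, of which replicate 1 was the highest. It was at 29.6, 25.2 and 27.4 CPM with LINC00996, which is 43.2% of the control mean (log2 fold change -1.21, standard error 0.13). With AP001189.3 it reached 109, 124 and 114 CPM, above every control library. PLEKHA4 thus had the order AP001189.3, control, LINC00996, with 3 groups that did not overlap.

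Against the other genes tested with LINC00996, the members stood at rank 24 (KLHDC7B), 29 (OR2I1P), 96 (RHCG) and 360 (PLEKHA4) from the lowest log2 fold change among 16097 genes, of which 573 had a value of -1 or below. In that comparison 11.6% of genes were called lower and 10.7% higher at an adjusted p under 0.05, and in 20.7% all LINC00996 libraries lay below all control libraries. The called genes that were higher made up 48.0% with TMM scaling, 54.6% with library size alone and 51.2% with the GC offset. The members were chosen from this comparison, so nothing is read from their place in it. Within the LINC00996 group the members ranged over 0.20 to 0.43 on the log2 scale between the highest and the lowest library. Leaving out a library in turn, LINC00996 replicate 1 included, kept the log2 fold change between -3.05 and -2.89 for KLHDC7B, -2.88 and -2.66 for OR2I1P, -2.02 and -1.89 for RHCG, and -1.29 and -1.09 for PLEKHA4.

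The AP001189.3 libraries took no part in the choice of the 4 genes, although the control libraries, which both comparisons share, did. Here the genes parted. PLEKHA4 rose 1.83-fold and RHCG fell to 0.797 of the control level, while KLHDC7B and OR2I1P did not pass the test. The log2 fold change of PLEKHA4 was 0.87 (standard error 0.088, adjusted p = 9.16e-06 by the quasi-likelihood method of edgeR, Benjamini-Hochberg over 16023 genes), and it was higher in 3 of 3 libraries. For RHCG it was -0.33 (standard error 0.071, adjusted p = 0.00177 by edgeR), lower in 3 of 3 libraries. KLHDC7B had 0.21 (standard error 0.11, adjusted p = 0.168 by edgeR) and OR2I1P had -0.23 (standard error 0.098, adjusted p = 0.0940 by edgeR). In this comparison 11.4% of all genes were called higher and 8.49% lower, and the groups did not overlap in 18.5% (higher) and 16.7% (lower) of genes. The called genes that were higher made up 57.2% with TMM scaling, 48.3% with library size alone and 49.8% with the GC offset.

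The call for PLEKHA4 held in all 13 alternatives run, with a log2 fold change between 0.67 and 1.00 and an adjusted p of at most 0.000552. The call for RHCG was lost in a fit over all 9 libraries (adjusted p = 0.0820), where 437 genes were called in place of 3180, and held in the other 12 alternatives (adjusted p from 9.43e-06 to 0.0235). OR2I1P passed the test without control replicate 3 (log2 fold change -0.32, adjusted p = 0.0219). Since the AP001189.3 libraries were related to GC content in the direction of GC-rich genes, an offset for GC content was also fitted. The longest transcripts of KLHDC7B and PLEKHA4 have 66.5% and 62.4% GC, those of RHCG and OR2I1P 57.7% and 47.6%. With the offset PLEKHA4 stood at 0.67 (its smallest value) and KLHDC7B turned to -0.055 (adjusted p = 0.801).

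Between the overexpression plasmids, every member was lower with LINC00996 than with AP001189.3, in each case without overlap. The log2 difference was -3.19 for KLHDC7B (standard error 0.16), -2.53 for OR2I1P (standard error 0.15), -2.09 for PLEKHA4 (standard error 0.10) and -1.63 for RHCG (standard error 0.11). These are descriptions, since the LINC00996 libraries were used to choose the genes. In this comparison 12.1% of 16095 genes were called lower and 9.38% higher, and 19.7% lay lower without overlap. The called genes that were higher made up 43.7% with TMM scaling, 56.1% with library size alone and 55.2% with the GC offset.

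Of the 67 interferon-stimulated genes listed for this work, 66 could be tested. With LINC00996, 50 of them fell and 16 did not pass the test, beside 11.6% of all genes called lower, with a median log2 fold change of -0.62 against 0.01 over all genes. OASL, an oligoadenylate synthetase relative, had -1.54 (standard error 0.092), XAF1, a cofactor of apoptosis, -1.47 (standard error 0.100) and IFIT2, an antiviral RNA-binding protein, -1.67 (standard error 0.12), with adjusted p of 1.08e-06, 2.45e-06 and 3.11e-06 by edgeR. With AP001189.3, 43 of the 66 rose and 23 did not pass the test, beside 11.4% of all genes called higher, with a median of 0.22 against -0.00 over all genes, and in the fit over all 9 libraries 17 rose, where 344 of 16560 genes were called higher. ISG20, an exonuclease that degrades viral RNA, rose by 0.82 (standard error 0.057, adjusted p = 6.64e-11 by edgeR), IFIT2 by 0.83 (standard error 0.061, adjusted p = 1.84e-08) and PSMB9, an immunoproteasome subunit, by 0.75 (standard error 0.062, adjusted p = 2.84e-09). Between the plasmids 60 of the 66 were lower with LINC00996, beside 12.1% of all genes, with a median of -0.98 against 0.02 over all genes.

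IFI44 was at 130, 143 and 146 CPM in the control libraries, 89.7, 104 and 113 CPM with LINC00996 and 141, 149 and 151 CPM with AP001189.3. It fell with LINC00996 (log2 fold change -0.45, standard error 0.11, adjusted p = 0.00969 by edgeR), a call that was lost without control replicate 2 (adjusted p = 0.0637) or control replicate 3 (adjusted p = 0.0623). With AP001189.3 its libraries overlapped the control libraries (log2 fold change 0.08, adjusted p = 0.378 by edgeR), although it passed with the GC offset (0.17, adjusted p = 0.0149). CMPK2 was at 176, 198 and 199 CPM in the control libraries, 107, 110 and 118 CPM with LINC00996 and 206, 232 and 222 CPM with AP001189.3. It fell with LINC00996 (log2 fold change -0.78, standard error 0.093, adjusted p = 0.000138 by edgeR) and was higher with AP001189.3 (0.20, standard error 0.057, adjusted p = 0.0118 by edgeR). The last call was lost in the fit over all 9 libraries (adjusted p = 0.176) and without control replicate 1 (0.0621), AP001189.3 replicate 2 (0.120) or AP001189.3 replicate 3 (0.0579).

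**Figure D2:**
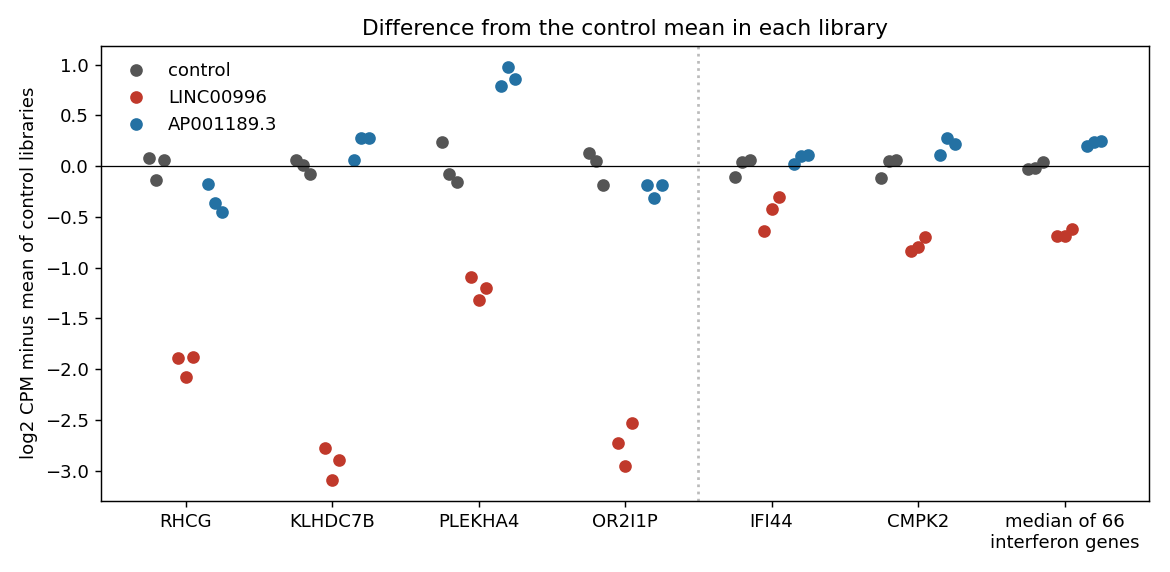
Difference of each library from the mean of the control libraries (vertical axis, log2 CPM) for the 4 genes, IFI44, CMPK2 and the median of 66 interferon-stimulated genes; each point is a library. In the LINC00996 libraries all columns lie below 0, from -3.09 for KLHDC7B to -0.31 for IFI44, while in the AP001189.3 libraries PLEKHA4 (0.79 to 0.98) lies above and RHCG (-0.45 to -0.17) and OR2I1P (-0.31 to -0.19) below it.

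Library by library, the 4 genes and the interferon genes were set side by side as log2 CPM minus the control mean. The median interferon-stimulated gene was at -0.68, -0.69 and -0.62 in LINC00996 replicates 1, 2 and 3. KLHDC7B was at -2.77, -3.09 and -2.89 in the same libraries and OR2I1P at -2.72, -2.96 and -2.53. RHCG was at -1.89, -2.08 and -1.88, and PLEKHA4 at -1.09, -1.31 and -1.20. Each of the 4 genes was thus lowest in replicate 2, as was the median interferon-stimulated gene by a small margin, whereas IFI44 (-0.63, -0.42 and -0.31) and CMPK2 (-0.84, -0.80 and -0.70) were lowest in replicate 1, the library that stood apart.

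In AP001189.3 replicates 1, 2 and 3 the median interferon-stimulated gene was at 0.20, 0.24 and 0.24. PLEKHA4 was at 0.79, 0.98 and 0.86 and so lay above it in every library. KLHDC7B was at 0.07, 0.28 and 0.28, beside CMPK2 at 0.11, 0.28 and 0.22, but its difference did not pass the test and turned to -0.055 with the GC offset. RHCG, at -0.17, -0.36 and -0.45, and OR2I1P, at -0.19, -0.31 and -0.19, lay below the control mean, although OR2I1P did not pass the test and RHCG lost its call in the fit over all 9 libraries. Of the 66 interferon-stimulated genes, 6 also had a log2 fold change below 0. The 9 libraries fall into 3 separate groups of 3, so no correlation across libraries was computed, and the relation within the groups was not tested.

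Likeness of pattern was measured by the root mean square difference over the 9 libraries of log2 CPM, each gene centred on its own mean, among 16560 genes. The measure includes the LINC00996 libraries used to choose the 4 genes and grows with the size of a difference, so the distances and ranks below are descriptions that the choice largely fixes. By this measure KLHDC7B and OR2I1P were close to each other, at 0.29, with OR2I1P the 10th nearest of 16559 genes to KLHDC7B and KLHDC7B the 9th nearest to OR2I1P. PLEKHA4 and KLHDC7B were the farthest apart of the 4 genes, at 0.71. CMPK2, whose own difference with LINC00996 was smaller than theirs, ranked 355 (PLEKHA4), 528 (RHCG), 606 (KLHDC7B) and 630 (OR2I1P) among their neighbours in pattern. IFI44, with a smaller difference still, ranked farther away, at 1476 (PLEKHA4), 1501 (RHCG), 1635 (KLHDC7B) and 1608 (OR2I1P).

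**Figure D3:**
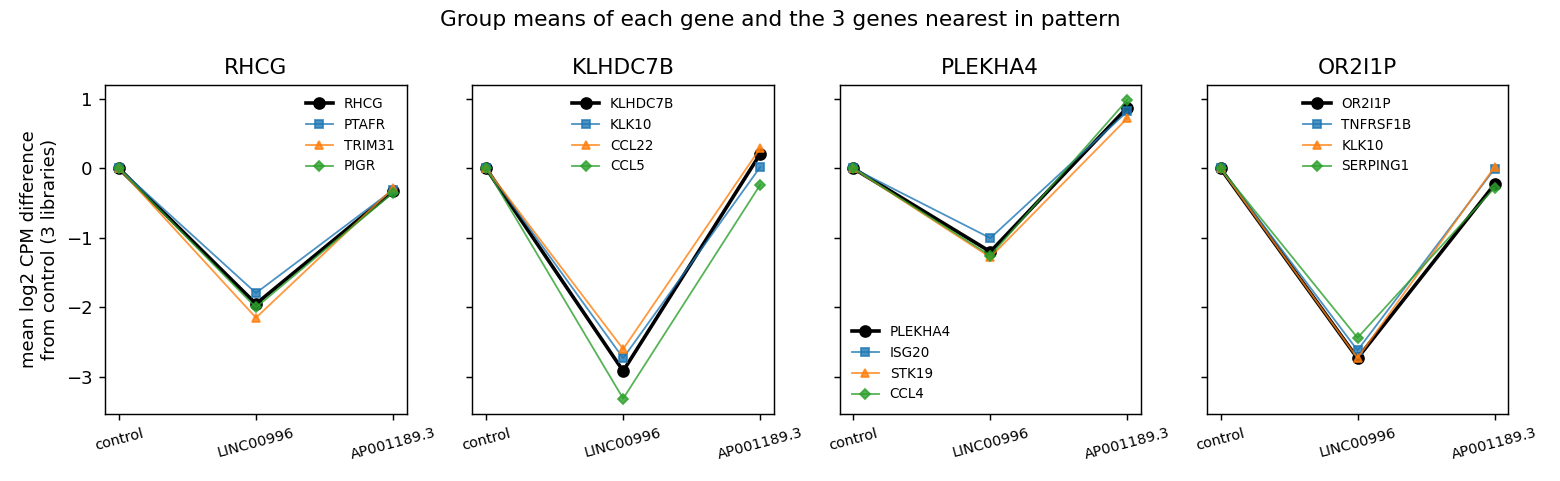
Mean log2 CPM difference from control (vertical axis) in the control, LINC00996 and AP001189.3 groups (3 libraries each) for each of the 4 genes in black and for the 3 genes nearest to it in pattern in colour. The genes beside PLEKHA4 go up with AP001189.3, to between 0.72 and 0.99, and those beside RHCG go down, to between -0.35 and -0.29.

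The nearest genes were chosen by their levels in the same 9 libraries, so their values in each group are given as a description, without a test. Nearest to PLEKHA4 were ISG20 (0.14), STK19 (0.14) and CCL4 (0.16), a chemokine for macrophages and T cells. ISG20 was at 121 ± 7.29 CPM in the control group, 61.0 ± 10.2 CPM with LINC00996 and 215 ± 11.3 CPM with AP001189.3 (SD, n = 3 each). STK19 was at 25.6 ± 1.30, 10.5 ± 1.55 and 42.5 ± 3.72 CPM (SD, n = 3 each) in the same order. CCL4 was the least abundant, at 1.13 ± 0.306, 0.399 ± 0.0856 and 2.32 ± 0.153 CPM (SD, n = 3 each).

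RHCG was nearest to PTAFR, the receptor of platelet-activating factor (0.11), TRIM31, a ubiquitin ligase (0.12), and PIGR, the receptor that carries polymeric immunoglobulins across epithelia (0.12). TRIM31 was at 78.2 ± 4.93 CPM in the control group, 17.5 ± 0.938 CPM with LINC00996 and 64.2 ± 6.50 CPM with AP001189.3 (SD, n = 3 each). PTAFR was at 25.2 ± 1.48, 7.16 ± 0.0723 and 20.4 ± 3.27 CPM (SD, n = 3 each) in the same order. PIGR was at 16.8 ± 1.21, 4.10 ± 0.229 and 13.3 ± 2.59 CPM (SD, n = 3 each), and its AP001189.3 libraries overlapped the control libraries.

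KLHDC7B was nearest to KLK10, a secreted serine protease (0.20), CCL22, a chemokine (0.20), and CCL5, a chemokine for T cells (0.21). KLK10 was at 26.5 ± 0.631, 3.96 ± 0.970 and 26.8 ± 0.0533 CPM (SD, n = 3 each) in the control, LINC00996 and AP001189.3 groups. CCL22 was at 9.69 ± 1.46, 1.49 ± 0.166 and 11.8 ± 1.05 CPM (SD, n = 3 each). CCL5 was far more abundant, at 1202 ± 115, 121 ± 11.5 and 1018 ± 50.7 CPM (SD, n = 3 each). Without LINC00996 replicate 1, only 1 of these genes stayed among the 3 nearest.

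OR2I1P was nearest to TNFRSF1B, a receptor of tumour necrosis factor (0.15), KLK10 (0.17) and SERPING1, the inhibitor of complement C1 (0.19). TNFRSF1B was at 51.0 ± 6.48, 8.23 ± 1.43 and 50.7 ± 5.80 CPM (SD, n = 3 each) in the control, LINC00996 and AP001189.3 groups. SERPING1 was at 29.8 ± 0.639, 5.51 ± 1.39 and 24.6 ± 1.69 CPM (SD, n = 3 each). Of the 11 genes named here as nearest in pattern, ISG20 is on the list of interferon-stimulated genes, beside 66 of the 16560 genes compared. The list was drawn up for this work, so absence from it does not show that a gene is not induced by interferon.

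RHCG was the only Rh family gene detected at more than a trace. The other 4 (RHBG, RHAG, RHCE and RHD) had at most 4 counts in a library and could not be tested. Of 20 genes of ammonia and glutamine handling, 16 were tested with LINC00996, where AMPD3, an AMP deaminase that releases ammonia, fell by 0.93 (standard error 0.15, adjusted p = 0.00113 by edgeR) and CAD, which starts pyrimidine synthesis from glutamine, rose by 0.59 (standard error 0.10, adjusted p = 0.00188). These are 1 of 16 in each direction, beside 11.6% of all genes called lower and 10.7% higher. SLC38A2, a glutamine transporter, had -0.32 (adjusted p = 0.0559 by edgeR), and the median of the list was 0.09 against 0.01 over all genes. With AP001189.3, beside 8.49% of all genes called lower and 11.4% higher, 2 of 17 fell, CPS1 of the urea cycle (-0.34, adjusted p = 0.000197 by edgeR) and PPAT of purine synthesis (-0.29, adjusted p = 0.0186). In the same comparison 2 rose, GLUL, the glutamine synthetase (0.27, adjusted p = 0.00781), and SLC1A5, a glutamine transporter (0.16, adjusted p = 0.0211, named after its value was seen).

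**Figure D4:**
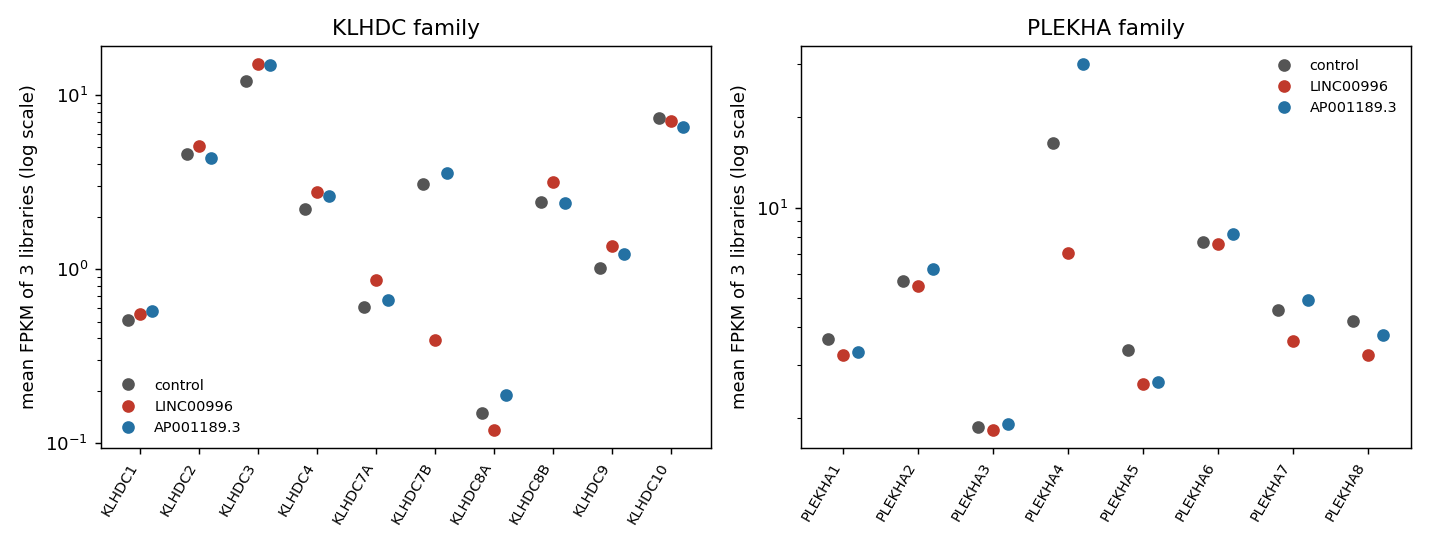
Mean FPKM of 3 libraries (vertical axes, log scale) for the detected genes named KLHDC, on the left, and PLEKHA, on the right, in the control, LINC00996 and AP001189.3 groups. KLHDC7B goes from 3.10 to 0.391 FPKM with LINC00996 while the other 8 KLHDC genes tested in that comparison had log2 fold changes of -0.07 to 0.52 and KLHDC8A, which was not tested, goes from 0.150 to 0.120 FPKM, and PLEKHA4 has the highest level of its family in the control group and with AP001189.3.

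Among the other kelch domain genes, 8 were tested with LINC00996 and edgeR called 0 of them, with 2 at an unadjusted p under 0.05 and 0 called by DESeq2, beside 11.6% of all genes called lower and 10.7% higher. Their log2 fold changes ran from -0.07 for KLHDC10 to 0.52 for KLHDC7A, the closest relative by name, which was at 0.609 FPKM in the control group and 0.866 FPKM with LINC00996. KLHDC3 and KLHDC4 had 0.32 and 0.33 (adjusted p = 0.132 and 0.133 by edgeR). With AP001189.3, KLHDC3 rose by 0.30 (standard error 0.086, adjusted p = 0.0132 by edgeR), as 1 of 9 tested, beside 11.4% of all genes called higher.

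In the PLEKHA family all 8 genes were detected, and PLEKHA4 had the highest level per length in the control group, next to PLEKHA6 at 7.66 FPKM. Of the other 7, PLEKHA5, PLEKHA8 and PLEKHA7 fell with LINC00996, by 0.37, 0.37 and 0.34 on the log2 scale (adjusted p = 0.0341, 0.0401 and 0.0462 by edgeR), beside 11.6% of all genes called lower. PLEKHA1, PLEKHA2, PLEKHA3 and PLEKHA6 had values from -0.18 to -0.01. With AP001189.3, PLEKHA5 fell by 0.35 (standard error 0.076, adjusted p = 0.00156 by edgeR), as 1 of 7 beside 8.49% of all genes called lower, and the other 6 did not pass the test, with values from -0.15 to 0.13.

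The 16 genes of the Dishevelled and CUL3-KLHL12 machinery around PLEKHA4 were all tested. With LINC00996, 2 fell and 3 rose, beside 11.6% and 10.7% of all genes, with a list median of 0.03 against 0.01 over all genes. FZD7, a Wnt receptor, fell by 0.58 (standard error 0.10, adjusted p = 0.00183 by edgeR), DVL2, a Dishevelled protein, rose by 0.56 (standard error 0.14, adjusted p = 0.0125) and AXIN2, a target and inhibitor of Wnt signalling, rose by 0.48 (standard error 0.12, adjusted p = 0.0135). The planar polarity genes VANGL2 (-0.54, adjusted p = 0.0199 by edgeR) and VANGL1 (0.39, adjusted p = 0.0297) are the remaining calls and were named after their values were seen. With AP001189.3, DVL1 and DVL2 rose by 0.38 and 0.32 (adjusted p = 0.000736 and 0.00310 by edgeR) and RBX1, the ring subunit of the CUL3 ligase, fell by 0.34 (adjusted p = 0.00385), which makes 2 of 16 higher and 1 of 16 lower beside 11.4% and 8.49% of all genes.

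The 12 other olfactory receptor genes on the list set up for OR2I1P had at most 4 counts in a library, and 4 of them had 0 in all 9, so OR2I1P was the only one whose level could be followed. Among the 4 other genes on that list that were tested with LINC00996, HCP5, a noncoding RNA, fell by 2.18 (standard error 0.14, adjusted p = 2.26e-06 by edgeR) and HLA-F, a class I molecule, fell by 1.22 (standard error 0.14, adjusted p = 9.31e-05), beside 11.6% of all genes called lower. The list was chosen by gene name, and distances from OR2I1P were not compared. GABBR1 (-0.17, adjusted p = 0.349 by edgeR) and TRIM27 (0.08, adjusted p = 0.590) did not pass the test. HLA-F rose by 0.53 with AP001189.3 (standard error 0.063, adjusted p = 8.59e-07 by edgeR), as 1 of 4 beside 11.4% of all genes called higher, and HCP5 had -0.19 (adjusted p = 0.268).

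The nearest expressed genes on the chromosomes were compared with the members. Beside RHCG, TICRR, a DNA replication factor 78869 bases away, was at 36.5 ± 0.758, 38.3 ± 1.10 and 35.9 ± 1.70 CPM in the control, LINC00996 and AP001189.3 groups (SD, n = 3 each), and MIR9-3HG had at most 16 counts in a library. Upstream of KLHDC7B, 2985 bases away on the opposite strand, U62317.1 was at 2.05 ± 0.366, 0.748 ± 0.383 and 1.73 ± 0.341 CPM (SD, n = 3 each). It fell with LINC00996 (log2 fold change -1.44, adjusted p = 0.0164 by edgeR), on 8 to 41 counts in a library, and lost the call without control replicate 1 (0.0746), control replicate 3 (0.0595) or LINC00996 replicate 2 (0.0625). CPT1B, on the other side of KLHDC7B, had 7 to 27 counts. HSD17B14, a steroid dehydrogenase gene 419 bases from PLEKHA4, rose with LINC00996 (2.22 ± 0.556 CPM in control and 6.63 ± 3.31 CPM, SD, n = 3 each), by a log2 fold change of 1.58 (adjusted p = 0.00561 by edgeR), opposite to PLEKHA4. Its LINC00996 libraries had a wide spread, and its counts ran from 30 to 190 in a library. With AP001189.3 it had 0.65 (adjusted p = 0.0589 by edgeR), the direction of PLEKHA4 there, without passing the test. PPP1R15A, a stress-induced phosphatase subunit on the other side of PLEKHA4, rose with AP001189.3 by 0.93 (adjusted p = 0.0278 by edgeR), from 85.3 ± 18.2 to 162 ± 13.5 CPM (SD, n = 3 each), and stood at 85.9 ± 18.7 CPM with LINC00996. That call was lost with the replicate number as a block (adjusted p = 0.119) and without control replicate 2 (0.0871) or any AP001189.3 replicate (0.0622 to 0.0760). ZNF311 and SUMO2P1, on either side of OR2I1P, had 15 to 49 counts in a library.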

How the data were processed

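The authors deposited raw counts per gene and FPKM values per library. Poly(A) RNA was read as paired ends, and per the labels and the study's methods HISAT2 2.0.5 placed the reads on GRCh38 and featureCounts 1.5.0-p3 gave the counts per gene. The strand setting of the counting is not given in the sources used here. All 9 columns were used, and libraries were grouped by title. The members and lists were chosen with earlier results of these data known.

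Each comparison was fitted here on its 6 libraries with edgeR 4.0.16 (filterByExpr, TMM, robust quasi-likelihood test, Benjamini-Hochberg over all genes tested, threshold 0.05), and tested on simulated data. The members were tested in AP001189.3 against control alone. CPM use TMM factors over the 9 libraries, and log2 CPM a prior count of 2. The deposited FPKM were used to compare levels between genes. Standard errors were derived from the edgeR fits, and SDs are over the 3 libraries of a group. Named are the members, IFI44, CMPK2, the lncRNAs, the 3 nearest genes in pattern, genes overlapping or beside a member, detected family genes and the 3 genes of each list with the smallest adjusted p. Alternatives were DESeq2 1.42.0, library size alone, other filters, all 9 libraries in 1 fit, a replicate block, each library left out, and, added after the data were seen, a GC offset (loess span 0.75) and the same alternatives for the single genes named beside the members.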

Additional observations from a re-analysis of the deposited data

How the results depend on the processing

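In LINC00996 against control all 4 members kept their direction and moved by less than the spread between replicates in every alternative (ranges with a library left out: KLHDC7B -3.05 to -2.89, OR2I1P -2.88 to -2.66, RHCG -2.02 to -1.89, PLEKHA4 -1.29 to -1.09). In AP001189.3 against control, PLEKHA4 kept its call throughout, RHCG missed the threshold in the fit over all 9 libraries (-0.33), OR2I1P passed it without control replicate 3 (range with a library left out -0.32 to -0.17), and KLHDC7B turned to -0.055 with the GC offset. In LINC00996 against AP001189.3 the GC offset moved KLHDC7B to -2.99 and PLEKHA4 to -1.91 by more than the spread between replicates. The cause was not tested.

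The number of genes called depended more on the settings. With LINC00996 against control 3588 genes were called, 6014 with the GC offset, and 1925 to 5481 with a library left out, the highest without LINC00996 replicate 1. With AP001189.3 against control 3180 were called, 437 in the fit over all 9 libraries (93 lower and 344 higher), and 1914 to 3598 with a library left out, the lowest without AP001189.3 replicate 2. Between the plasmids 3452 were called, 5966 with the GC offset, and 1840 to 6828 with a library left out, the lowest without AP001189.3 replicate 1 and the highest without LINC00996 replicate 1.

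The deviations of same-numbered libraries were weakly correlated, above 0 in 8 of 9 pairs but not over 0.1 in every pair (correlations over 16560 genes of 0.15, 0.021 and 0.086 for LINC00996 and control, 0.059, -0.020 and 0.032 for AP001189.3 and control, and 0.082, 0.0045 and 0.052 for the plasmids), and not every library correlated best with its own number, so the numbers were not taken as pairs. A replicate block gave 4500, 3466 and 3772 called genes in the 3 comparisons and changed no call of a member. Of the 4 members, KLHDC7B had the fewest counts, 28 to 41 in the LINC00996 libraries.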
